A study of Mus musculus with 25 samples.

Results

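The genes described here encode calprotectin and other antimicrobial proteins of mucosal surfaces and neutrophils in the mouse esophagus. The 8 genes were chosen by symbol: S100a8 and S100a9 (the 2 subunits of calprotectin), Lcn2 (lipocalin 2), Slpi (secretory leukocyte protease inhibitor), Ltf (lactoferrin), Pglyrp1 (peptidoglycan recognition protein 1), Reg3g (a bactericidal C-type lectin) and Camp (cathelicidin). All 8 were found among the 21954 genes listed in either expression table, 8 in the adult table and 7 in the pup table, which does not list Camp. Whole-esophagus RNA was sequenced in 25 libraries from mice in which NRF2, the transcription factor of the antioxidant response, was activated in squamous cells by the cancer-derived L30F substitution or by loss of KEAP1, the adaptor that sends NRF2 for degradation.

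Pups of 7 to 10 days were L30F homozygotes (NRF2L30F/L30F::K5Cre), KEAP1-deficient (KEAP1flox/flox::K5Cre) or wild type, with 3 libraries each. Adults of 6 to 9 weeks were L30F homozygotes (NRF2L30F/L30F::K5CreERT2), L30F heterozygotes (NRF2L30F/+::K5CreERT2), KEAP1-deficient (KEAP1flox/flox::K5CreERT2) or wild type, with 4 libraries each, taken 1 week after tamoxifen at 100 µg per g body weight. K5 is the keratin 5 promoter, active in squamous epithelial cells, and CreERT2 is a Cre that tamoxifen activates; the labels do not say whether wild-type mice carried a Cre. Separate animals are not stated for the libraries, and the p-values here therefore rest on a spread between libraries that may be technical.

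S100A8 and S100A9 pair to form calprotectin, which binds zinc, manganese and calcium and withholds zinc and manganese from microbes. Lipocalin 2 captures bacterial siderophores, lactoferrin binds iron, SLPI inhibits neutrophil serine proteases and kills microbes, PGLYRP1 binds bacterial peptidoglycan, and REG3G and cathelicidin act on bacterial membranes. Neutrophils store calprotectin in the cytosol and lactoferrin, lipocalin 2, PGLYRP1 and cathelicidin in granules, while stressed squamous epithelium makes S100A8, S100A9, lipocalin 2 and SLPI itself. Whole-tissue counts do not separate these sources, and in bulk tissue fewer cells of a type and less RNA per cell cannot be told apart.

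In mutant pups the genes split. Slpi, S100a9, S100a8 and Lcn2 rose in both genotypes, by 192-fold to 8.27-fold in L30F homozygotes and by 272-fold to 8.21-fold in KEAP1-deficient pups, while Pglyrp1 fell in both. Ltf and Reg3g fell in KEAP1-deficient pups, but each of these calls was lost in 6 of 9 fits with 1 library left out. In KEAP1-deficient adults S100a8 rose 572-fold, S100a9 204-fold, Ltf 76.3-fold, Pglyrp1 67.7-fold and Lcn2 47.3-fold against wild type. Adult L30F homozygotes had smaller rises of S100a8, S100a9 and Lcn2, and the Lcn2 call was lost in 10 of 16 fits with 1 library left out. In adult heterozygotes 0 of the 7 members tested were called, where 9.70% of all genes were. Slpi, high in every adult library, was not called against wild type in any adult genotype.

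The promoter windows of the 4 genes that rose together in mutant pups are printed here, so that the letters upstream of these genes can be seen beside their values. Each runs 5′ to 3′ on the gene's strand from 250 bases before to 50 bases after the start of the gene, from RefSeq on build GRCm38.p6, in which all 8 members matched an entry. The expression values were made on another build and carry no coordinates. The windows are S100a8 at chr3:90668821-90669120 on the plus strand, S100a9 at chr3:90695672-90695971 on the minus strand, Lcn2 at chr2:32387690-32387989 on the minus strand and Slpi at chr2:164356458-164356757 on the minus strand. Capitals mark matches, on either strand, to TTNNGNAA, a loose form of the C/EBP site, and to GGG, any 4 bases and TCC, a loose form of the NF-kB site.
S100a8: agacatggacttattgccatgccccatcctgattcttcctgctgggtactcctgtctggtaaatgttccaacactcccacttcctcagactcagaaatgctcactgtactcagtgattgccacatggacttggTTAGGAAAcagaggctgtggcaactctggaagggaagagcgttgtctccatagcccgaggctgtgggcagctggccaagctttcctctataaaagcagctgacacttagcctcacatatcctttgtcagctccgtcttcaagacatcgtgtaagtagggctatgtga
S100a9: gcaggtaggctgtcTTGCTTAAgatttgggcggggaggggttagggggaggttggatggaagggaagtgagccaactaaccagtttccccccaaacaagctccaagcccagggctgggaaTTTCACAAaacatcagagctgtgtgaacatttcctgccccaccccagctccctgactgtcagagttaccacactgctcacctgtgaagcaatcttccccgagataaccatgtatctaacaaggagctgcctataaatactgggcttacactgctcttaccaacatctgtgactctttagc
Lcn2: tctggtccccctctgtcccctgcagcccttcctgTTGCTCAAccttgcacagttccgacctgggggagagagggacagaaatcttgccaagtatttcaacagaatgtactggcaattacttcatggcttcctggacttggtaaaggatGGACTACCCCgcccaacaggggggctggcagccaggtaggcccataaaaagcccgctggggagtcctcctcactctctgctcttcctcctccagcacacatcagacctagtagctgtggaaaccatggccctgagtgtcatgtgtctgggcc
Slpi: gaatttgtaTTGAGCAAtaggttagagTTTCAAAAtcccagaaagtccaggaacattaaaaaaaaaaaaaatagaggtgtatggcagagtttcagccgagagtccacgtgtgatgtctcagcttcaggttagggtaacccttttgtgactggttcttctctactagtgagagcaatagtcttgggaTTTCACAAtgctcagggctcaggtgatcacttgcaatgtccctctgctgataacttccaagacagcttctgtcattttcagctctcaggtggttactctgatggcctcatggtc

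S100a8 held 1 C/EBP-like match, starting 117 bases before the gene start, S100a9 held 2 and Slpi 3. In Lcn2 the C/EBP-like match started 216 bases and the NF-kB-like match 102 bases before the start. Over the 8 members, 5 windows held TTNNGNAA, against 40.7% of the 32807 promoter windows of the same length, and 3 held the NF-kB form, against 19.2%. TGACNNNGC, the core of the antioxidant response element bound by NRF2, was in 0 of 8 windows, against 12.4%, and the STAT motif TTCNNNGAA in 0 of 8, against 8.29%. No match says only that these letters are not in these 300 bases.

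Values are normalised read counts, the deposited log2 values turned back to counts per library after scaling, and each log2 fold change is the difference of group means of log2(value + 1), which understates the change of low genes. A gene is called at an adjusted p under 0.05 in limma over all genes tested. Pup libraries held 18.8 to 19.7 M reads, and adult libraries 10.9 to 11.6 M in L30F homozygotes, 12.8 to 16.9 M in heterozygotes, 22.5 to 31.3 M in KEAP1-deficient mice and 27.5 to 32.3 M in wild type. Keap1 averaged 779.9 ± 50.5 in KEAP1-deficient pups and 1069.2 ± 21.8 in wild-type pups (SD, n = 3 each), and 757.4 ± 40.6 in KEAP1-deficient adults and 1148.3 ± 49.8 in wild-type adults (n = 4 each). Nqo1, a classical NRF2 target, rose in all 5 comparisons with wild type, by 7.01 in homozygous pups, 7.28 in KEAP1-deficient pups, 2.51 in adult homozygotes, 1.95 in heterozygotes and 2.45 in KEAP1-deficient adults on the log2 scale. Nfe2l2, which encodes NRF2, averaged 1641 ± 371 in homozygous pups, 2513 ± 440 in KEAP1-deficient pups and 1301 ± 38.2 in wild-type pups. In adults it averaged 1457 ± 304 in homozygotes, 3565 ± 385 in heterozygotes, 4302 ± 96.2 in KEAP1-deficient mice and 5662 ± 371 in wild type. Krt5 and Trp63, genes of basal squamous cells, were present in all 25 libraries. Krt4 and Krt13, suprabasal keratins of the esophagus, were also present in all 25, and among KEAP1-deficient adults Krt4 fell by 6.09 and Krt13 by 2.23 on the log2 scale (adjusted p = 2.5e-08 and 7.7e-09). Of 10 squamous markers, 7 rose and 2 fell in homozygous pups (22.0% and 17.1% of all genes), and 8 rose and 2 fell in KEAP1-deficient pups (26.3% and 23.2%). Their summed level was 285331 to 336358 counts in homozygous pups, 375374 to 427617 in KEAP1-deficient pups and 173546 to 219004 in wild-type pups. Among adults, 3 rose and 4 fell in homozygotes (11.8% and 10.4%), 0 rose and 1 fell in heterozygotes (4.80% and 4.90%), and 3 rose and 4 fell in KEAP1-deficient mice (24.1% and 22.7%).

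Genes of glands, stomach or leukocytes set 5 libraries apart, and results that rest on them are given with and without them. Homozygous pup library 1 had 4946.3 counts of the gland mucin Muc5b, against 7.9 and 7.2 in the other homozygous pups, and KEAP1-deficient pup library 2 had 2117.2 of the stomach gene Tff1 and 1217.7 of Gkn1, against at most 2.1 in the other KEAP1-deficient pups. Adult heterozygous library 3 had 7465.0 of Muc5b and 1557.5 of Bpifb1, an airway and gland gene, against at most 3.7 of either in the other heterozygotes. Among adult homozygotes, Ptprc, which marks all leukocytes, was highest in library 3 (1192.2) and lowest in library 4 (401.0). Adult wild-type library 4 was singled out by its Ltf and Pglyrp1, values of the members themselves, so the fits without it are a description.

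Both calprotectin genes rose in mutant pups. S100a8 (ENSMUSG00000056054) had 313.8, 533.3 and 853.1 normalised counts in L30F homozygous pups, 469.3, 1494.3 and 681.4 in KEAP1-deficient pups, and 23.1, 15.1 and 33.4 in wild-type pups. S100a9 had 1169.6, 1767.3 and 2276.6 in homozygotes, 1782.5, 3962.6 and 2369.3 in KEAP1-deficient pups, and 36.5, 40.9 and 68.5 in wild type. Every mutant library lay above every wild-type library for both subunits, and KEAP1-deficient library 2, the library with stomach genes, was the highest of all. In homozygotes the log2 fold change was 4.46 for S100a8 (SE 0.52, adjusted p = 0.00028) and 5.13 for S100a9 (SE 0.37, adjusted p = 1.8e-05). In KEAP1-deficient pups it was 5.04 for S100a8 (SE 0.52, adjusted p = 9.2e-05) and 5.74 for S100a9 (SE 0.37, adjusted p = 6.1e-06), and without library 2 it was 4.58 and 5.43 (adjusted p = 0.00016 and 1.5e-05).

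In adults both calprotectin genes rose in homozygotes and KEAP1-deficient mice. S100a8 had 2429.5, 1858.7, 10029.9 and 130.8 counts in L30F homozygotes and 51.2, 412.7, 196.2 and 87.4 in heterozygotes. It had 24571, 25411, 25871.5 and 28914 in KEAP1-deficient adults, and 21.0, 26.7, 75.3 and 92.8 in wild-type adults. The KEAP1-deficient libraries were all above the highest homozygote, and the homozygotes, which spread widely, were all above the highest wild-type library, while heterozygotes overlapped wild type. S100a9 had 4418.7, 3543.5, 18943 and 615.4 in homozygotes and 324.1, 684.9, 643.1 and 364.6 in heterozygotes. It had 35941, 37509, 38622 and 46042 in KEAP1-deficient adults, and 147.7, 126.9, 220.9 and 324.6 in wild type. S100a9 showed the same order of groups, and its lowest heterozygote lay just below the highest wild-type library.

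In KEAP1-deficient adults the log2 fold change of S100a8 was 9.16 (SE 1.05, adjusted p = 1.1e-05), the 5th largest rise of 19857 genes tested, and that of S100a9 was 7.68 (SE 0.74, adjusted p = 2.3e-06), the 16th. In L30F homozygotes S100a8 rose by 5.10 (SE 1.05, adjusted p = 0.0044) and S100a9 by 4.26 (SE 0.74, adjusted p = 0.0016). Leaving out homozygous library 3, the one richest in Ptprc, gave 4.20 and 3.47 (adjusted p = 0.011 and 0.0014), and leaving out library 4 gave 6.29 and 5.11 (adjusted p = 0.00016 and 2.6e-05). In heterozygotes the log2 fold change was 1.61 for S100a8 (95% confidence interval −0.67 to 3.88, adjusted p = 0.37) and 1.31 for S100a9 (−0.29 to 2.91, adjusted p = 0.29), and neither was called.

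The 3 adult mutant genotypes also differed among themselves. Relative to KEAP1-deficient adults, the log2 difference of S100a8 was −4.06 in homozygotes (SE 1.05, adjusted p = 0.012) and −7.55 in heterozygotes (SE 1.05, adjusted p = 6.3e-05). That of S100a9 was −3.42 in homozygotes (SE 0.74, adjusted p = 0.0043) and −6.36 in heterozygotes (SE 0.74, adjusted p = 1.3e-05). Homozygotes were above heterozygotes by 3.49 for S100a8 (SE 1.05, adjusted p = 0.04) and 2.94 for S100a9 (SE 0.74, adjusted p = 0.017), although homozygous library 4 lay within the heterozygous range for both. These calls rest on the spread shared with the other groups: with only homozygotes and heterozygotes fitted, the adjusted p was 0.2 and 0.14. S100a8 also lost its call, at an adjusted p of up to 0.1, without homozygous library 1, 2 or 3, heterozygous library 1, 3 or 4, wild-type library 3 or any 1 of the KEAP1-deficient libraries.

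**Figure D1:**
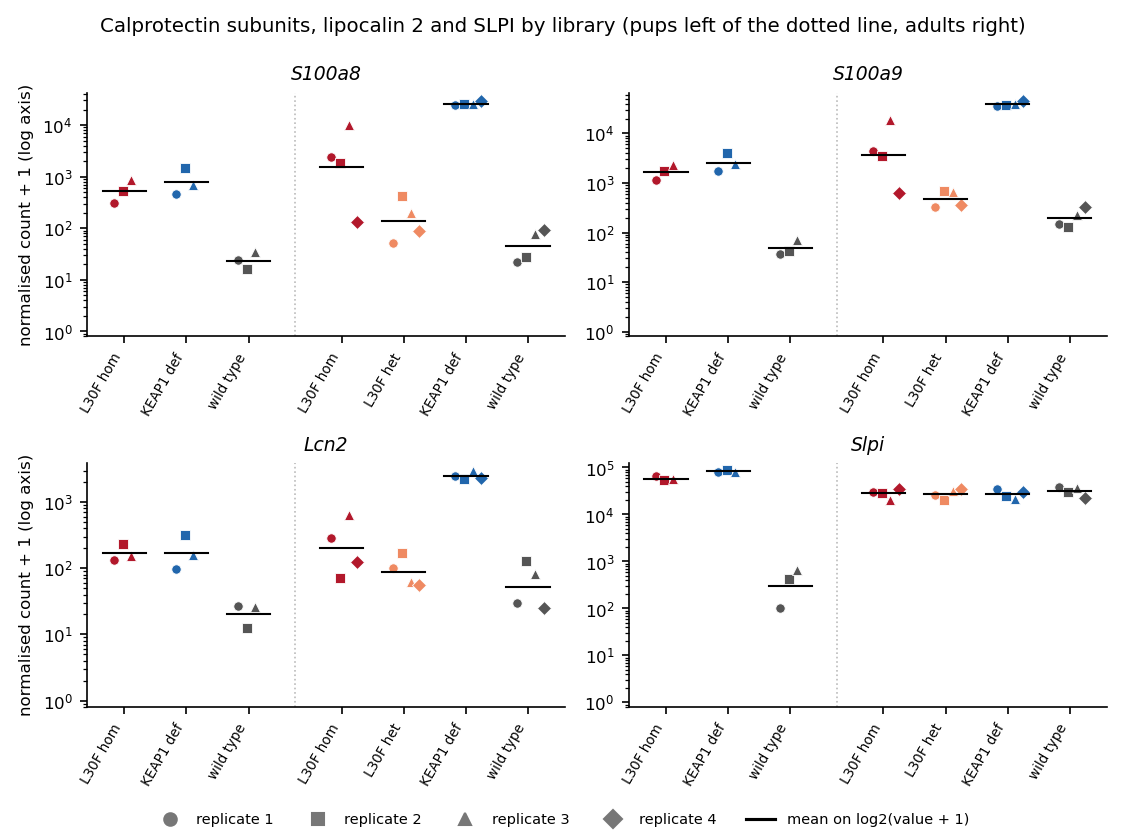
Normalised counts plus 1 (log axis) of S100a8, S100a9, Lcn2 and Slpi in each of the 25 libraries; colours mark genotypes, marker shapes replicate numbers and black lines the group mean on the log2(value + 1) scale. In KEAP1-deficient adults all 4 libraries lie above every other adult library for S100a8, S100a9 and Lcn2. Slpi lies between 20039 and 39251 in adults, and among pups it is low in wild type alone.

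The balance of the 2 subunits varied between groups. The S100a9 to S100a8 ratio of counts, which does not depend on how a library was scaled, was 3.24 ± 0.53 in homozygous pups, 3.31 ± 0.59 in KEAP1-deficient pups and 2.11 ± 0.57 in wild-type pups (SD, n = 3 each). In adults it was 2.58 ± 1.42 in homozygotes, 3.86 ± 1.95 in heterozygotes, 1.51 ± 0.06 in KEAP1-deficient mice and 4.56 ± 1.82 in wild type (SD, n = 4 each). The 4 KEAP1-deficient adults, at 1.46 to 1.59, were the tightest group and lay below every other adult library, and homozygous libraries 1, 2 and 3, at 1.82 to 1.91, came next with 1 heterozygote at 1.66 between them. Per kilobase of exon (486 bases for S100a8 and 522 for S100a9), the adult ratio was 1.40 ± 0.05 in KEAP1-deficient mice and 4.24 ± 1.69 in wild type. These ratios are a description with no test.

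**Figure D2:**
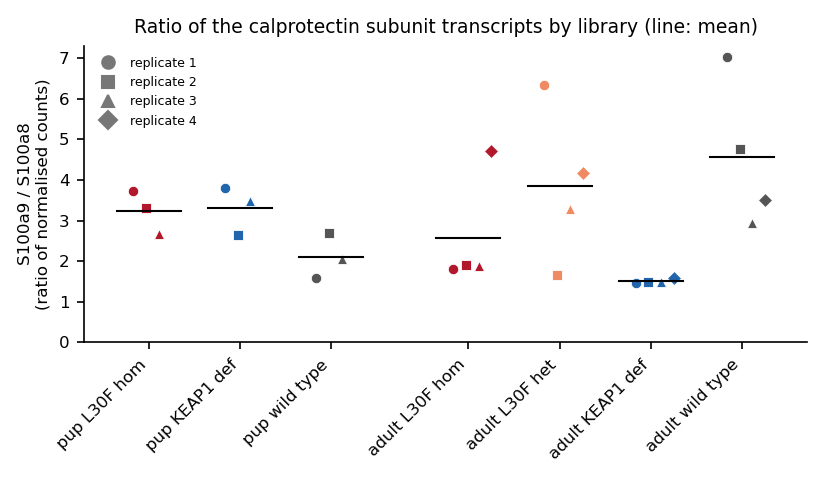
Ratio of S100a9 to S100a8 normalised counts in each library, with the group mean as a line. The KEAP1-deficient adults sit between 1.46 and 1.59, and the adult wild-type libraries between 2.93 and 7.03.

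Lcn2, the lipocalin gene, rose in the same 4 mutant groups as the calprotectin genes. Lcn2 had 134.5, 233.6 and 153.6 counts in homozygous pups, 94.9, 312.6 and 158.7 in KEAP1-deficient pups, and 25.8, 11.6 and 24.8 in wild-type pups. No mutant pup overlapped wild type, and the log2 fold change was 3.05 in homozygotes (SE 0.45, adjusted p = 0.00069) and 3.04 in KEAP1-deficient pups (SE 0.45, adjusted p = 0.00048). In adults it had 290.3, 71.3, 646.5 and 122.0 in homozygotes and 99.9, 167.6, 60.6 and 54.8 in heterozygotes. It had 2508.1, 2254.1, 2924.8 and 2344.8 in KEAP1-deficient mice, and 28.4, 127.5, 80.3 and 24.2 in wild type.

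Only the KEAP1-deficient adults stood clear of wild type for Lcn2. Their log2 fold change was 5.56 (SE 0.64, adjusted p = 7.7e-06), and the log2 difference from them was −3.62 in homozygotes (SE 0.64, adjusted p = 0.00097) and −4.84 in heterozygotes (SE 0.64, adjusted p = 3e-05). In homozygotes Lcn2 rose by 1.94 (SE 0.64, adjusted p = 0.044), with 2 of the 4 libraries inside the wild-type range. That call was lost in 10 of 16 fits with 1 library left out, at an adjusted p of up to 0.12, namely without homozygous library 1 or 3 (0.1 and 0.11), wild-type library 1, 3 or 4 (0.12, 0.054 and 0.11), heterozygous library 3 or any 1 of the KEAP1-deficient libraries. In heterozygotes the log2 fold change was 0.73 (95% confidence interval −0.65 to 2.11, adjusted p = 0.52).

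Slpi showed the largest rise of the members in pups and no call in adults. It had 65782, 53154 and 56349 counts in homozygous pups, 80017, 87049 and 80435 in KEAP1-deficient pups, and 98.8, 416.2 and 664.9 in wild-type pups. Wild-type pups were low, with library 1 the lowest, and every mutant pup was far above them. The log2 fold change was 7.59 in homozygotes (SE 0.64, adjusted p = 0.00011), the 30th largest rise of 21007 genes, and 8.09 in KEAP1-deficient pups (SE 0.64, adjusted p = 5.2e-05), the 31st.

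In adults Slpi had 30449, 28520.2, 20724 and 35269.6 counts in homozygotes and 26569.5, 20039, 31453 and 34004 in heterozygotes. It had 34265, 24648, 21254 and 30693 in KEAP1-deficient mice, and 39251, 29833, 36524 and 22207 in wild type. The 4 adult groups overlapped throughout. The log2 fold change against wild type was −0.15 in homozygotes (95% confidence interval −0.60 to 0.31), −0.18 in heterozygotes (−0.64 to 0.27) and −0.20 in KEAP1-deficient mice (−0.65 to 0.26), so that a change of 1 log2 unit lay outside each interval. Levels of pups and adults come from tables normalized separately and are not compared directly.

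Ltf and Pglyrp1 fell in KEAP1-deficient pups and rose in KEAP1-deficient adults. Ltf had 1147.7, 8.9 and 29.7 counts in homozygous pups, 248.5, 3.4 and 5.4 in KEAP1-deficient pups, and 2916.3, 2404.1 and 1875.6 in wild-type pups. Pglyrp1 had 158.4, 31.5 and 29.7 in homozygotes, 40.5, 49.7 and 22.7 in KEAP1-deficient pups, and 766.5, 517.6 and 379.9 in wild type. For both genes every mutant pup was below every wild-type pup, and homozygous library 1, the library high in Muc5b, was the highest mutant.

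Pglyrp1 fell by 3.30 on the log2 scale in homozygous pups (SE 0.64, adjusted p = 0.0043) and by 3.86 in KEAP1-deficient pups (SE 0.64, adjusted p = 0.0013). Ltf fell by 6.95 in KEAP1-deficient pups (SE 2.16, adjusted p = 0.034), but the call was lost in 6 of 9 fits with 1 library left out. Among these were the fits without KEAP1-deficient library 2 or 3 (adjusted p = 0.11 and 0.089) and without any 1 of the wild-type libraries (0.081 to 0.083). In homozygous pups Ltf was not called (−5.07, SE 2.16, adjusted p = 0.11), and without library 1 it was −7.08 (adjusted p = 0.027).

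In adults Ltf had 18.9, 13.3, 157.4 and 5.2 counts in homozygotes and 174.2, 4.3, 1039.1 and 13.3 in heterozygotes. It had 1694.7, 1302.8, 3050.9 and 1667.4 in KEAP1-deficient mice, and 5.4, 3.5, 11.8 and 901.3 in wild type. Only the KEAP1-deficient libraries were uniformly high, and single libraries of the other groups (heterozygote 3, the library with gland genes, and wild type 4) came closest to them. Pglyrp1 had 61.5, 48.1, 203.3 and 3.5 in homozygotes and 36.6, 18.6, 96.9 and 13.3 in heterozygotes. It had 1702.5, 625.4, 1521.3 and 1318.0 in KEAP1-deficient mice, and 6.8, 9.3, 12.4 and 94.1 in wild type. Every KEAP1-deficient library was above all others for Pglyrp1, while homozygotes and heterozygotes each overlapped wild type.

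In KEAP1-deficient adults Ltf rose by 6.25 (SE 1.82, adjusted p = 0.012) and Pglyrp1 by 6.08 (SE 1.04, adjusted p = 0.00026) on the log2 scale. With any 1 of the 16 adult libraries left out both stayed called, at an adjusted p of at most 0.041 for Ltf and 0.0013 for Pglyrp1. The largest log2 fold changes, 7.997 for Ltf and 6.88 for Pglyrp1, came without wild-type library 4, which holds the highest wild-type values of both genes. Relative to KEAP1-deficient adults, the log2 difference in homozygotes was −6.31 for Ltf (SE 1.82, adjusted p = 0.021) and −4.88 for Pglyrp1 (SE 1.04, adjusted p = 0.0034). In heterozygotes it was −4.91 for Ltf (SE 1.82, adjusted p = 0.042) and −5.25 for Pglyrp1 (SE 1.04, adjusted p = 0.00091). The Ltf call for homozygotes was lost without homozygous library 2 or 4 or KEAP1-deficient library 3 (adjusted p of up to 0.058). That for heterozygotes was lost without heterozygous library 2 or 4, homozygous library 1, wild-type library 3 or any 1 of the KEAP1-deficient libraries (up to 0.13). Against wild type the log2 fold change of Ltf was −0.06 in homozygotes and 1.35 in heterozygotes, and that of Pglyrp1 was 1.2 in homozygotes and 0.84 in heterozygotes, with none called. Without heterozygous library 3, the library with gland genes, heterozygotes gave −0.02 for Ltf and 0.30 for Pglyrp1 against wild type (adjusted p = 1.0 and 0.91), and −6.27 and −5.79 against KEAP1-deficient adults (adjusted p = 0.011 and 0.0009).

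Reg3g reached high counts in wild-type pups and in single libraries of other groups. It had 1087.9, 0 and 0 counts in homozygous pups, 2.1, 0 and 0 in KEAP1-deficient pups, and 704.2, 611.0 and 257.6 in wild-type pups. Among mutant pups homozygous library 1 alone held more than 2 reads of it. Reg3g fell in KEAP1-deficient pups (adjusted p = 0.035), where its log2 fold change of −8.36 (SE 2.64) was the largest fall of all genes tested but depends on the offset, since those libraries held 2, 0 and 0 reads. That call was lost without any 1 of the 6 libraries compared (adjusted p 0.069 to 0.099) and with limma-voom (0.15). In homozygous pups the value was −5.55 (SE 2.64, adjusted p = 0.14), and it was not called in 8 of 9 fits with 1 library left out. Without library 1 it was −8.91 (adjusted p = 7.5e-06). The homozygotes left in that fit are all at 0, so they show no spread and the value depends on the offset. That p-value therefore does not measure how the gene varies between homozygotes.

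In adults Reg3g was listed at 0 in all 4 homozygotes. It had 0, 0, 288.2 and 0 counts in heterozygotes, 2.3, 0, 0 and 0 in KEAP1-deficient mice, and 0, 0, 0 and 2.0 in wild type. The sole high library was heterozygote 3, and the gene did not reach 1 normalised count in 4 libraries, so that it was not tested in adults. The 6 other REG genes of the list were in neither table.

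Camp was low throughout. It had 4.7, 1.7, 1.5 and 7.0 counts in adult homozygotes, 4.9, 5.7, 19.4 and 11.9 in heterozygotes, 1.7, 1.6, 0 and 2.2 in KEAP1-deficient mice, and 4.7, 3.5, 6.8 and 6.0 in wild type. The KEAP1-deficient libraries, with at most 3 reads each, lay below all wild-type and heterozygous libraries, while Lcn2, Ltf and Pglyrp1 rose in the same libraries. The fall was called against wild type (log2 fold change −1.50, SE 0.52, adjusted p = 0.027) and was not called at an offset of 4 or 5 (adjusted p = 0.051 and 0.059) or without KEAP1-deficient library 3 or wild-type library 3 or 4 (0.095, 0.069 and 0.059). Heterozygotes were above KEAP1-deficient mice by 2.22 (SE 0.52, adjusted p = 0.0025), and by 1.88 without heterozygous library 3 (adjusted p = 0.011). Ngp, a granule gene of immature neutrophils, was also higher in heterozygotes, at 28.9 ± 23.8 counts, against 2.61 ± 2.11 in KEAP1-deficient mice (SD, n = 4 each; log2 difference 2.89, SE 0.82, adjusted p = 0.0086). Mpo averaged 7.06 ± 2.21 in heterozygotes and 4.0 ± 6.42 in KEAP1-deficient mice (adjusted p = 0.12), and the part of such cells in the Camp difference was not tested.

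**Figure D3:**
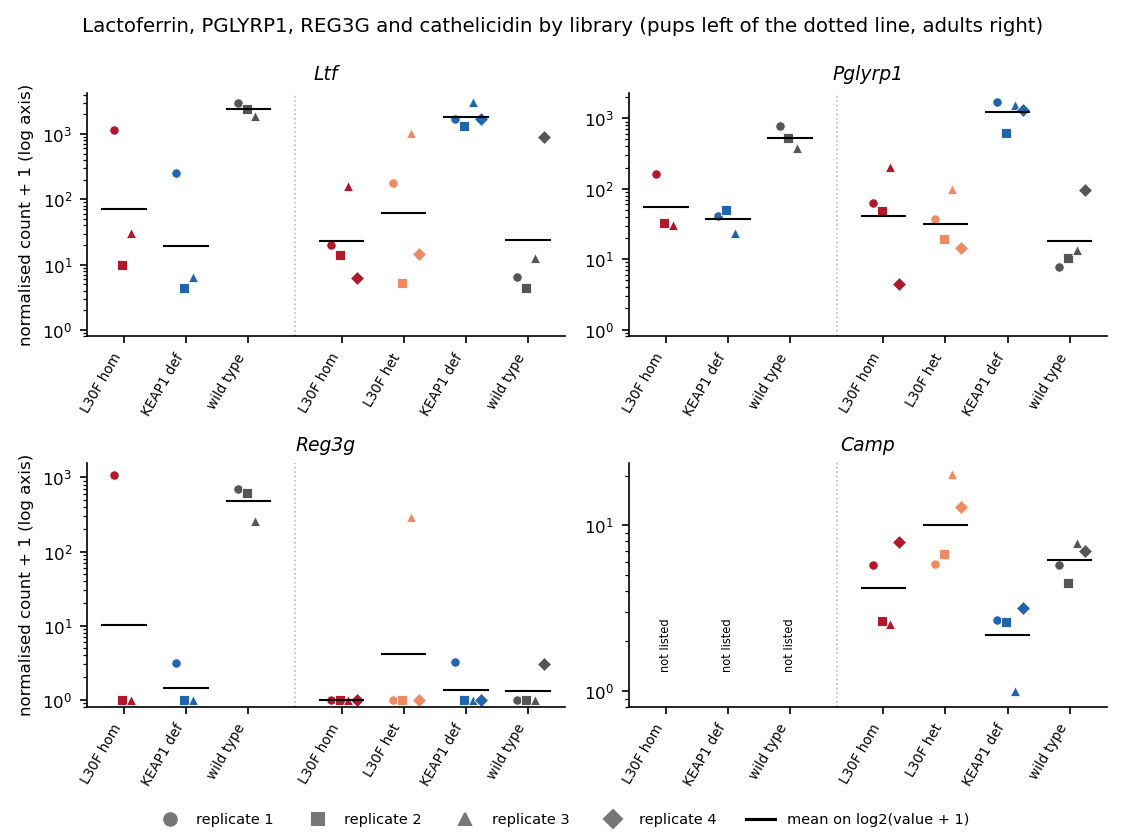
Normalised counts plus 1 (log axis) of Ltf, Pglyrp1, Reg3g and Camp in each library, drawn as in the plot of calprotectin genes; Camp is not listed in the pup table. Among pups Ltf and Pglyrp1 are highest in wild type, among adults in KEAP1-deficient mice, and Reg3g is at 0 in most mutant and adult libraries.

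Counted over the members, 5 of the 7 tested in homozygous pups were called, 4 higher and 1 lower, where 39.2% of all genes tested were called (22.0% higher, 17.1% lower). Without library 1 it was 7 of 7, a count that includes Reg3g at 0 in all homozygotes left. With limma-voom 6 of 7 were called in homozygous pups and 6 of 7 in KEAP1-deficient pups. In KEAP1-deficient pups 7 of 7 were called, 4 higher and 3 lower, against 49.5% (26.3% higher, 23.2% lower), and 5 of 7 without library 2. In adult homozygotes 3 of 7 were called, all higher, against 22.3% (11.8% higher, 10.4% lower), and in KEAP1-deficient adults 6 of 7, 5 higher and 1 lower, against 46.8% (24.1% higher, 22.7% lower). In adult heterozygotes limma called 0 of 7, against 9.70% of all genes (4.80% higher, 4.90% lower), with 0 of 7 at an unadjusted p under 0.05 and 0 with limma-voom.

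The median log2 fold change of the members tested was 3.05 in homozygous pups, 3.04 in KEAP1-deficient pups, 1.2 in adult homozygotes, 0.84 in heterozygotes and 6.08 in KEAP1-deficient adults, where that of all genes tested lay between −0.05 and 0.01. Only members that passed the filter enter these counts, which leaves Camp out in pups and Reg3g out in adults. Between the adult mutants, 2 of 7 were called for homozygotes against heterozygotes, both higher, where 16.4% of all genes were (8.07% higher, 8.29% lower). For homozygotes against KEAP1-deficient mice 5 of 7 were called, all lower, where 26.4% of all genes were (12.9% higher, 13.5% lower), and for heterozygotes against KEAP1-deficient mice 6 of 7, 1 higher and 5 lower, where 44.8% were (21.6% higher, 23.2% lower). These comparisons share libraries and are not independent of each other.

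**Figure D4:**
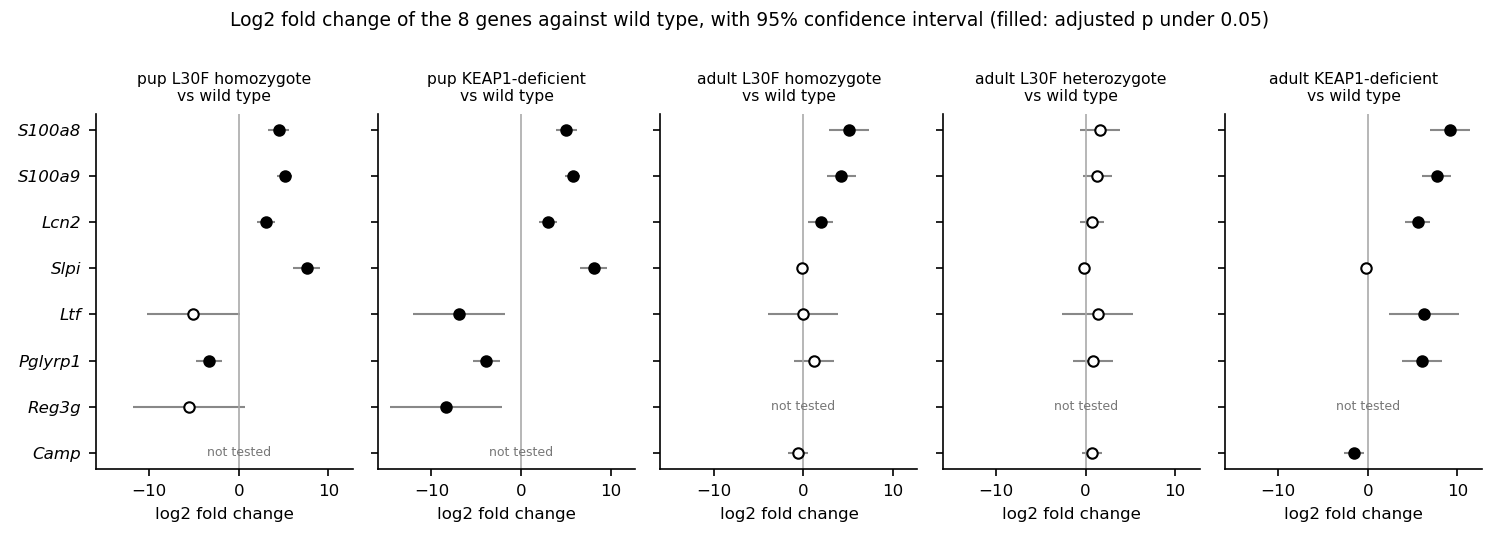
Log2 fold change against wild type of each gene in the 5 mutant groups, with the 95% confidence interval from limma; filled points have an adjusted p under 0.05. S100a8, S100a9 and Lcn2 are filled on the right of 0 in 4 of 5 panels, Slpi in the pup panels alone, and Ltf and Pglyrp1 lie left of 0 in pups and right of 0 in KEAP1-deficient adults.

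Between the 2 mutant pup genotypes limma called 0 of 7 members, where 4.17% of all genes were called, 1.76% higher and 2.40% lower (0 of 7 at an unadjusted p under 0.05, and 0 with limma-voom). Homozygotes minus KEAP1-deficient pups gave −0.58 for S100a8 (95% confidence interval −1.77 to 0.61), −0.61 for S100a9 (−1.47 to 0.25), −0.50 for Slpi (−2.02 to 1.01) and 0.01 for Lcn2 (−1.01 to 1.03). For Ltf and Reg3g the intervals ran from −3.28 to 7.04 and from −3.46 to 9.08, so that the data leave large differences possible in either direction.

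Effects against wild type differed between pups and adults. The ages also differ in Cre line and tamoxifen, which cannot be told apart from age. For KEAP1 loss the adult log2 fold change minus that of pups was 13.20 for Ltf (SE 2.82, adjusted p = 0.001), 9.94 for Pglyrp1 (SE 1.22, adjusted p = 6.5e-07), 4.12 for S100a8 (SE 1.17, adjusted p = 0.007), 2.53 for Lcn2 (SE 0.78, adjusted p = 0.01) and −8.29 for Slpi (SE 0.67, adjusted p = 8.6e-06). These were 5 of 6 members tested in both tables, where 47.1% of 19031 genes were called. S100a9 gave 1.93 (SE 0.83, adjusted p = 0.064), and it was called without adult homozygous library 3 or 4 or KEAP1-deficient pup library 2 (adjusted p = 0.017, 0.01 and 0.032), while S100a8 lost its call with limma-voom (0.071).

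For the L30F homozygote the difference was 4.49 for Pglyrp1 (SE 1.22, adjusted p = 0.0066) and −7.73 for Slpi (SE 0.67, adjusted p = 2.5e-05), 2 of 6 members against 33.5% of all genes. The effects on S100a8 (0.63, 95% confidence interval −1.83 to 3.09), S100a9 (−0.88, −2.62 to 0.86) and Lcn2 (−1.11, −2.73 to 0.52) were not called different between ages, and Ltf was called only without homozygous pup library 1 (7.02, adjusted p = 0.045). S100a8, S100a9 and Lcn2 were called higher in homozygotes at both ages.

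Markers of leukocytes were set beside the members, since neutrophils carry most of these proteins. In KEAP1-deficient adults 15 of 18 neutrophil markers tested were higher and 1 lower (24.1% and 22.7% of all genes), with a median log2 fold change of 3.24. Their summed level was 5244 to 8487 counts, against 1440.05 to 3280.2 in wild type. Csf3r, the G-CSF receptor, had 1636.6, 1143.0, 2290.2 and 1261.2 in KEAP1-deficient mice and 22.4, 70.7, 152.4 and 25.5 in wild type (log2 fold change 4.90, SE 0.61, adjusted p = 1.3e-05). Ly6g, which defines mouse neutrophils, had 15.8, 12.8, 17.3 and 16.7 in KEAP1-deficient adults and 0 in all 4 wild-type adults (adjusted p = 1.5e-05), and Hdc, histidine decarboxylase, averaged 537.7 in KEAP1-deficient adults and 23.2 in wild type (adjusted p = 1.1e-05). Mpo, made like Ngp by immature neutrophils, reached at most 10.4 in heterozygotes, 13.6 in KEAP1-deficient adults and 3.1 in wild type. Ngp reached at most 61.8 in heterozygotes, 4.5 in KEAP1-deficient adults and 16.2 in wild type, and rose by 2.70 in heterozygotes (SE 0.82, adjusted p = 0.048).

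Markers of other leukocytes were also higher in KEAP1-deficient adults. Of the macrophage and dendritic markers, 11 of 12 rose and 0 fell (24.1% and 22.7% of all genes), with summed levels of 13668 to 18200.1 counts in KEAP1-deficient adults and 6226 to 9972 in wild type. Of the lymphocyte and pan-leukocyte markers 7 of 11 rose (24.1%), with summed levels of 2643 to 3089 in KEAP1-deficient adults and 338.7 to 551.3 in wild type. Ptprc averaged 1879.4 ± 94.9 in KEAP1-deficient adults and 338.1 ± 102.1 in wild type (SD, n = 4 each), and rose by 2.51 (SE 0.26, adjusted p = 1.5e-06). The part of these cells in the rises of S100a8, S100a9, Lcn2, Ltf and Pglyrp1 was not tested.

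In adult homozygotes 3 neutrophil markers were higher and 1 lower of 18 (11.8% and 10.4% of all genes), with summed levels of 1728 to 3120.35 counts, inside the wild-type range. Ly6g had 9.5, 1.7, 3.1 and 3.5 there, and Csf3r 306.0, 66.3, 201.8 and 66.3 (log2 fold change 1.34, SE 0.61, adjusted p = 0.13). Ptprc had 787.2, 610.2, 1192.2 and 401.0 and rose by 1.08 (SE 0.26, adjusted p = 0.0079). The library with the most Ptprc, library 3, had the most S100a8, S100a9, Lcn2, Pglyrp1 and Ltf of its group, and library 4, with the least Ptprc, the least S100a8, S100a9, Pglyrp1 and Ltf. Slpi and Camp went the other way, lowest in library 3 (20724 and 1.5) and highest in library 4 (35269.6 and 7.0), Camp on few reads. Of the macrophage and dendritic markers 6 of 12 rose in homozygotes, and of the lymphocyte and pan-leukocyte markers 2 of 11 (11.8% of all genes), and their part in the result was not tested. In heterozygotes 1 of 18 neutrophil, 1 of 12 macrophage and 0 of 11 lymphocyte markers rose (4.80% of all genes).

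**Figure D5:**
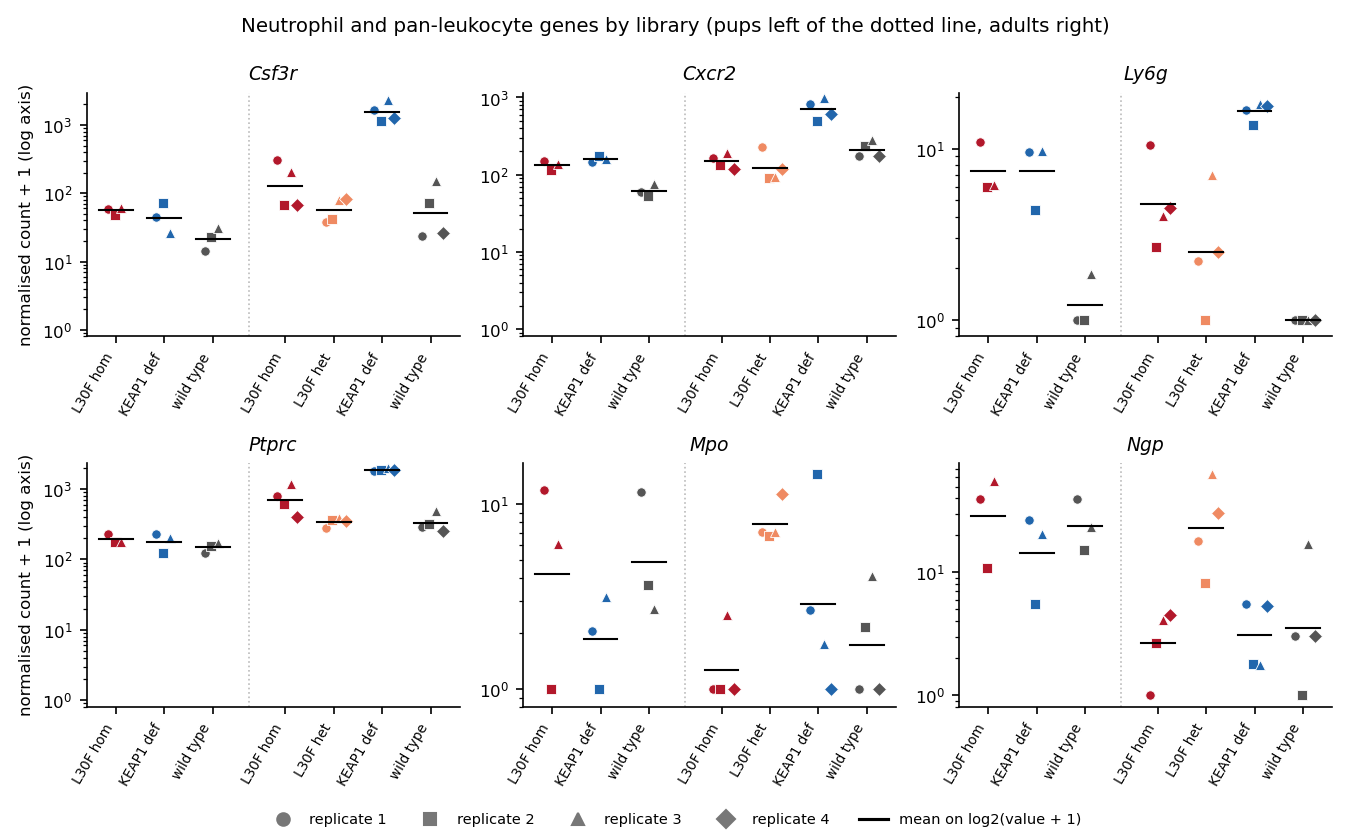
Normalised counts plus 1 (log axis) of Csf3r, Cxcr2, Ly6g, Ptprc, Mpo and Ngp in each library, drawn as in the plot of calprotectin genes. Among adults Csf3r, Cxcr2, Ly6g and Ptprc are highest in the 4 KEAP1-deficient libraries, while Mpo and Ngp are not.

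In pups the summed neutrophil levels, in which abundant genes weigh most, overlapped those of wild type, while some single neutrophil genes lay above it. Of 15 neutrophil markers tested, 8 rose and 1 fell in homozygotes (22.0% and 17.1% of all genes) and 5 rose and 1 fell in KEAP1-deficient pups (26.3% and 23.2%). Their median log2 fold change was 1.10 in homozygotes and 1.06 in KEAP1-deficient pups. Their summed level was 888.1 to 1108.1 counts in homozygotes, 909.3 to 1207.6 in KEAP1-deficient pups and 842.9 to 931.2 in wild type. Ly6g had 10.0, 4.9 and 5.1 in homozygotes, 8.5, 3.4 and 8.6 in KEAP1-deficient pups, and 0, 0 and 0.9 in wild type. Cxcr2, another neutrophil gene, averaged 215.4 ± 52.8 in wild-type adults, where Ly6g was 0 in all 4 libraries. Among pups Cxcr2 had 115.3 to 147.4 in homozygotes, 144.0 to 172.7 in KEAP1-deficient pups and 52.5 to 74.4 in wild type. Csf3r had 47.3 to 60.4 in homozygotes, 24.8 to 71.1 in KEAP1-deficient pups and 13.4 to 29.9 in wild type. Mpo and Ngp overlapped wild type in both mutants. Ptprc had a log2 fold change of 0.39 in homozygotes (SE 0.24, adjusted p = 0.23) and 0.27 in KEAP1-deficient pups (SE 0.24, adjusted p = 0.37). Of 12 macrophage markers, 2 rose and 1 fell in homozygotes (22.0% and 17.1% of all genes), and 4 rose and 6 fell in KEAP1-deficient pups (26.3% and 23.2%). Of the lymphocyte and pan-leukocyte markers 1 of 6 rose and 0 fell in each mutant, below the 22.0% and 26.3% of all genes that rose in homozygotes and KEAP1-deficient pups. The part of these cells in the pup results was not tested.

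Genes of glands and airway were set beside Ltf, Pglyrp1 and Reg3g, since lactoferrin and REG3G are also products of gland and airway epithelium. Muc5b had 4946.3, 7.9 and 7.2 counts in homozygous pups, 9.6, 111.7 and 5.4 in KEAP1-deficient pups, and 1088.7, 2034.1 and 409.9 in wild-type pups. The homozygote with high Muc5b was the one with high Reg3g and Ltf, and the remaining mutant pups had at most 111.7 of Muc5b and at most 2.1 of Reg3g. Ltf did not follow Muc5b among those pups. KEAP1-deficient library 1 had 248.5 of Ltf with 9.6 of Muc5b, and library 2 had 3.4 of Ltf with 111.7 of Muc5b. Over the 10 airway markers the summed level without Cyp2f2, which made most of the sum in wild type and was set apart after its values were seen, was 18.4 to 5296 in homozygotes, 26.7 to 1269.7 in KEAP1-deficient pups and 539.9 to 2508 in wild type. With Cyp2f2 it was 490.6 to 7235 in homozygotes, 794.8 to 1893 in KEAP1-deficient pups and 10492 to 15453 in wild type. In both pup comparisons 0 airway markers rose and 3 of 10 fell (22.0% and 17.1% of all genes in homozygotes, 26.3% and 23.2% in KEAP1-deficient pups).

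In adults the airway sum without Cyp2f2 was 8.29 to 81.9 counts in homozygotes, 66.7 to 7533 in heterozygotes, 5.59 to 10.7 in KEAP1-deficient mice and 26.4 to 57.4 in wild type, and with Cyp2f2 it was 1449 to 1963 in homozygotes, 4137 to 15175 in heterozygotes, 78.3 to 239.5 in KEAP1-deficient mice and 6220 to 12255 in wild type. Of 5 airway markers tested, 0 rose and 2 fell in homozygotes (11.8% and 10.4% of all genes), 0 rose and 0 fell in heterozygotes (4.80% and 4.90%), and 0 rose and 2 fell in KEAP1-deficient mice (24.1% and 22.7%). Single genes of gland and stomach went in both directions in KEAP1-deficient adults. Tff1 averaged 11.4 ± 6.81 in KEAP1-deficient adults and 2.39 ± 2.23 in wild type (log2 fold change 1.93, SE 0.69, adjusted p = 0.03), and Dmbt1, a secreted mucosal scavenger protein, averaged 72.8 ± 52.2 in KEAP1-deficient adults and 2.36 ± 3.86 in wild type (4.79, SE 1.75, adjusted p = 0.036). Bpifb1, at 4.89 ± 0.81 in KEAP1-deficient adults and 1.11 ± 0.94 in wild type, was not called (1.60, SE 1.54, adjusted p = 0.43). Of 4 glandular stomach and salivary markers tested there, 1 rose and 1 fell. Amy1 was the marker that fell (log2 fold change −2.68, adjusted p = 2.3e-05). It averaged 12.8 ± 6.28 in KEAP1-deficient adults and 79.8 ± 10.9 in wild type. The 5 markers of this list in the adult table summed to 19.97 to 51.67 counts in KEAP1-deficient adults and 84.69 to 106.66 in wild type. Wild-type library 4, with 901.3 counts of Ltf, had 14.8 of Muc5b. Glandular stomach and salivary markers summed to 5646 in KEAP1-deficient pup library 2 and to at most 157.4 in every other pup library. Whether cells of glands or neighbouring tissue account for these values was not tested.

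Other S100 genes were called in both directions, as were genes overall. Of 12 tested in pups, 4 rose and 6 fell in homozygotes (22.0% and 17.1% of all genes) and 5 rose and 5 fell in KEAP1-deficient pups (26.3% and 23.2%). Of 11 in adults, 2 rose and 3 fell in homozygotes (11.8% and 10.4% of all genes), 1 rose and 2 fell in heterozygotes (4.80% and 4.90%), and 3 rose and 5 fell in KEAP1-deficient mice (24.1% and 22.7%). Their median log2 fold change was −0.48 in homozygous pups and −0.03 in KEAP1-deficient adults, against −0.03 and −0.01 over all genes tested. S100a11, a calcium-binding protein of the cornified envelope, averaged 7117 ± 434.0 in KEAP1-deficient adults and 2765 ± 157.0 in wild type (log2 fold change 1.36, SE 0.13, adjusted p = 5.9e-07). S100a10, the annexin A2 partner, fell by 1.25 (SE 0.09, adjusted p = 2.3e-06) in KEAP1-deficient pups, and S100a3 by 3.97 (SE 0.37, adjusted p = 1.9e-05) in homozygous pups.

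Pglyrp3 and Pglyrp4 rose in mutant pups, where Pglyrp1 fell. Pglyrp3, a secreted bactericidal protein of squamous epithelium, averaged 559.2 ± 53.9 in homozygous pups, 800.3 ± 25.5 in KEAP1-deficient pups and 15.8 ± 4.43 in wild type (SD, n = 3 each), and rose by 5.10 in homozygotes (SE 0.19, adjusted p = 1.7e-08) and 5.62 in KEAP1-deficient pups (SE 0.19, adjusted p = 6.2e-09). Pglyrp4, which encodes a related protein, rose by 2.69 in homozygous and 3.64 in KEAP1-deficient pups. In the list of 6 (with the bacterial sensors Nod1, Nod2 and Tlr2), 2 rose in homozygous pups (22.0% of all genes) and 3 in KEAP1-deficient pups (26.3%). In adults 1 rose in homozygotes (11.8%), 0 in heterozygotes (4.80%) and 5 in KEAP1-deficient mice (24.1%), Tlr2 among them by 1.63 (SE 0.19, adjusted p = 4.1e-06), and 0 of 6 fell in any of the 5 comparisons with wild type. Their median was 0.16 in homozygous pups, 0.68 in KEAP1-deficient pups and 1.44 in KEAP1-deficient adults.

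Protease inhibitors and whey acidic protein genes were set beside Slpi. Spink5, the LEKTI inhibitor of kallikreins, averaged 47406 ± 7445 in homozygous pups, 69725.5 ± 3802 in KEAP1-deficient pups and 1278 ± 234.2 in wild type, and rose by 5.22 in homozygotes and 5.78 in KEAP1-deficient pups (SE 0.14 each, adjusted p = 3.9e-09 and 1.4e-09). In adults it rose by 1.23 in homozygotes, 0.60 in heterozygotes and 0.97 in KEAP1-deficient mice (SE 0.10, adjusted p = 4e-07, 0.0018 and 9e-07), where Slpi was not called. Wfdc5, another whey acidic protein, rose by 3.54 in homozygous and 4.12 in KEAP1-deficient pups and fell by 0.85 in adult homozygotes, 0.53 in heterozygotes and 0.70 in KEAP1-deficient adults. Wfdc1 fell by 0.77 in homozygous pups, 0.81 in KEAP1-deficient pups and 1.41 in KEAP1-deficient adults. Of 8 such genes in pups, 3 rose and 1 fell in homozygotes (22.0% and 17.1% of all genes) and 4 rose and 1 fell in KEAP1-deficient pups (26.3% and 23.2%). Of 9 in adults, 2 rose and 2 fell in homozygotes (11.8% and 10.4%), 2 rose and 3 fell in heterozygotes (4.80% and 4.90%), and 3 rose and 2 fell in KEAP1-deficient mice (24.1% and 22.7%). Their median was −0.26 in homozygous pups, 0.70 in KEAP1-deficient pups and 0.03 in KEAP1-deficient adults.

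Other mucosal defence genes were called in both directions. Of 27 tested in pups, 12 rose and 4 fell in homozygotes (22.0% and 17.1% of all genes) and 12 rose and 5 fell in KEAP1-deficient pups (26.3% and 23.2%). Of 26 in adults, 7 rose and 5 fell in homozygotes (11.8% and 10.4%), 1 rose and 1 fell in heterozygotes (4.80% and 4.90%), and 13 rose and 5 fell in KEAP1-deficient mice (24.1% and 22.7%). Their median was 0.63 in homozygous pups, 0.64 in KEAP1-deficient pups and 1.17 in KEAP1-deficient adults, against −0.03, −0.05 and −0.01 over all genes in these comparisons. Defb4, a beta-defensin, averaged 1649.5 ± 267.5 in homozygous pups, 2910.2 ± 740.6 in KEAP1-deficient pups and 95.8 ± 60.9 in wild type, and rose by 4.32 in homozygotes and 5.12 in KEAP1-deficient pups (adjusted p = 0.00044 and 0.00012). In KEAP1-deficient adults Defb4 had 845.7 ± 161.7, against 4945 ± 597 in wild type, and fell by 2.56 (SE 0.18, adjusted p = 2.8e-08). Pla2g2f, a secreted phospholipase, rose by 3.19 in homozygous and 3.58 in KEAP1-deficient pups and fell by 3.63 in KEAP1-deficient adults (SE 0.20, adjusted p = 2.7e-09). Duox1, which makes hydrogen peroxide at the epithelial surface, rose by 2.25 in homozygous and 2.68 in KEAP1-deficient pups and fell by 0.72 in adult homozygotes, 0.60 in heterozygotes and 0.52 in KEAP1-deficient adults.

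Genes that regulate the members, those of the IL-17, IL-22, STAT3, C/EBP and NF-kB pathways, were mostly higher in mutant pups and in KEAP1-deficient adults. Of 24 tested in pups, 15 rose and 0 fell in homozygotes (22.0% and 17.1% of all genes) and 18 rose and 0 fell in KEAP1-deficient pups (26.3% and 23.2%). Of 30 in adults, 5 rose and 1 fell in homozygotes (11.8% and 10.4%), 0 rose and 2 fell in heterozygotes (4.80% and 4.90%), and 20 rose and 1 fell in KEAP1-deficient mice (24.1% and 22.7%). Their median was 0.61 in homozygous pups, 1.13 in KEAP1-deficient pups, 0.10 in adult homozygotes and 0.95 in KEAP1-deficient adults. Cebpb, whose product binds C/EBP sites, had 1707.8 ± 155.6 in homozygous pups, 2215 ± 137.3 in KEAP1-deficient pups and 377.8 ± 49.6 in wild type, and rose by 2.18 in homozygotes and 2.55 in KEAP1-deficient pups (SE 0.11 each, adjusted p = 1.3e-07 and 2.9e-08). In KEAP1-deficient adults Cebpb rose by 0.66 (SE 0.11, adjusted p = 0.00013), with 2453 ± 116.0 counts there and 1570.9 ± 262.9 in wild type. Il17rc, an IL-17 receptor subunit, rose by 2.37 in homozygous and 2.88 in KEAP1-deficient pups, with a log2 fold change of 0.06 in KEAP1-deficient adults (adjusted p = 0.69). Il20rb, a receptor subunit for IL-20 cytokines, rose by 0.77 in homozygous and 1.19 in KEAP1-deficient pups and fell by 1.79 in KEAP1-deficient adults (SE 0.14, adjusted p = 9.4e-08).

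Receptors for these proteins were called in both directions in pups, at shares not far from those of all genes. Of 18 in pups, 6 rose and 3 fell in homozygotes (22.0% and 17.1% of all genes) and 3 rose and 6 fell in KEAP1-deficient pups (26.3% and 23.2%). Of 17 in adults, 1 rose in homozygotes (11.8%) and 1 in heterozygotes (4.80%), and 7 rose and 1 fell in KEAP1-deficient mice (24.1% and 22.7%). There Cd14, the lipopolysaccharide co-receptor, rose by 2.50 (SE 0.31, adjusted p = 9.3e-06), with 726.1 ± 277.9 counts against 131.5 ± 63.7 in wild type, and Cd33, a myeloid receptor reported to bind S100A9 in human cells, by 2.25 (SE 0.20, adjusted p = 3.2e-07). Alcam, a cell adhesion molecule, fell by 1.31 in homozygous and 1.28 in KEAP1-deficient pups.

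Per kilobase of exon, Slpi was the most abundant member in homozygous and KEAP1-deficient pups and in every adult group except the KEAP1-deficient one. It had 64920.4 ± 7296 normalised counts per kilobase in homozygous pups and 91667 ± 4383 in KEAP1-deficient pups, where S100a9 followed at 3329 ± 1061 in homozygotes and 5182 ± 2161 in KEAP1-deficient pups. In wild-type pups Ltf led, at 856.4 ± 185.8, with Pglyrp1 at 799.2 ± 282.3 and Reg3g at 679.97 ± 305.6 close behind it and within its spread, and Slpi, at 437.0 ± 315.3, came after them. In KEAP1-deficient adults S100a9 led at 75725 ± 8582, followed by S100a8 at 53893 ± 3895 and Slpi at 30794 ± 6508, and these did not overlap by their SDs. In adult homozygotes Slpi had 31934 ± 6724 and S100a9 13180.5 ± 15718, and in wild-type adults Slpi had 35504 ± 8453 and S100a9 392.8 ± 171.1 counts per kilobase.

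Genes whose 5 log2 fold changes against wild type lay closest to those of a member were found by the mean absolute difference over 17044 genes, as a description, since the groups of an experiment share their wild-type libraries. The genes nearest to S100a8 outside the members were Sprr2d (0.82), Sprr2f (0.91) and Krt90 (1.12), and those nearest to S100a9 were Sprr2d (0.75), Defb3 (0.82) and Krt90 (0.87). S100a8 and S100a9 themselves differed by 0.80. Sprr2d and Sprr2f belong to a family of near-identical copies, between which reads may be split. Nearest to Lcn2 were Cd300lf (0.21), Pdcd1 (0.43) and Il17c (0.47), and nearest to Slpi were 2210017I01Rik (0.11), Acp7 (0.31) and Lce1a1 (0.39). Fut9 (0.59), B3galt5 (0.64) and AA467197 (0.84) were nearest to Pglyrp1, and AA467197 (1.2), Cldn7 (1.25) and Ifit1bl1 (1.33) to Ltf.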

How the data were processed

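RNA-seq of whole mouse esophagus (total RNA, MGIEasy directional kit per the labels) was deposited as log2 values per gene, 1 table for 9 pup and 1 for 16 adult libraries, quantified with Salmon on GRCm39 per the submitters' processing notes, with no version stated. The deposited log2 values equal log2(n + 4), n being the reads over the library's size factor, so that whole reads were recovered (within 0.1 for values up to 1000). Library depth was summed from them, and intervals cover the spread between libraries only.

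Groups were taken from the labelled genotypes and ages. All genes with n of at least 1 in 3 pup or 4 adult libraries (21007 and 19857) were fitted with limma 3.58.1 (trend and robust settings, statmod 1.5.0, R 4.3.3) on log2(n + 1), with all groups of an experiment in 1 fit, after the script was tested on simulated data. P-values were adjusted by Benjamini-Hochberg over all genes, and a gene was called under 0.05. Adult-minus-pup differences of log2 fold changes were divided by their SE, with Welch-Satterthwaite degrees of freedom, over 19031 genes.

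The alternatives were offsets of 0.1, 4 and 5, no filter, TMM scaling, limma-voom on recovered reads, only the groups compared, a replicate block, thinned reads, and each library left out. For the adult-minus-pup differences, TMM, limma-voom, thinning and leaving out libraries were added after seeing the data.

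Text names the 8 members, fixed check genes, up to 3 called genes per list with the smallest adjusted p over the 5 comparisons with wild type, and the 3 genes most like each member (means of at least 10). The members and lists were chosen with earlier results of these data known, and Muc5b, Bpifb1, Tff1, Gkn1, Dmbt1 and Cyp2f2 were singled out after their values were seen. Libraries hold whole tissue, and no protein was measured.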

Additional observations from a re-analysis of the deposited data

Results flagged for a closer look

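Reg3g in adults was flagged in 3 groups because 1 library lay far from the others among 32 groups of 4 examined. Chance flags about 1 in 20 groups, but that rate does not apply here, since with 3 libraries at 0 any value above 0 in the fourth is flagged. Heterozygous library 3 had 288.2 normalised counts and the other heterozygotes 0. KEAP1-deficient library 1 had 2.254 (4 reads) and wild-type library 4 had 2.016 (3 reads), with 0 in the rest of their groups.

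Effects against wild type that differed between adults and pups were flagged for 7 values, each a log2 difference, adult minus pup, tested over all genes with limma estimates. For KEAP1 loss they were 13.2 for Ltf, 9.938 for Pglyrp1, 4.117 for S100a8, 2.527 for Lcn2 and −8.286 for Slpi. For the L30F homozygote they were 4.494 for Pglyrp1 and −7.732 for Slpi. Age, Cre line and tamoxifen cannot be told apart.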

How the results depend on the processing

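Over the settings other than leaving out a library, 647 of 662 values kept their direction and their side of the threshold, 9 lost and 3 gained a call, and 3 turned direction, none of them called: Lcn2 between mutant pups with thinned reads (−0.004354), and Ltf in adult homozygotes against wild type with limma-voom (0.1988) and an offset of 0.1 (0.002352). With libraries left out, 1086 of 1161 kept both, 46 lost and 6 gained a call, and 23 turned direction. With only the compared groups in the fit, 809 genes were called in adult heterozygotes against wild type (1927 with all groups), 1544 in homozygotes against heterozygotes (3249) and 185 between mutant pups (875). For homozygotes against heterozygotes, the members called were 1 with limma-voom, 0 with only those groups, 1 with thinned reads and 1 to 2 with a library left out, against 2.

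With each library left out, the genes called ran from 624 (without wild-type library 1) to 2455 in heterozygotes against wild type, from 2134 (without homozygous library 1) to 3314 in homozygotes against heterozygotes, and from 46 (without KEAP1-deficient library 2) to 924 between mutant pups. Uncalled values that turned direction lay, for homozygous minus KEAP1-deficient pups, between −0.3967 and 0.4578 (Lcn2), −0.1363 and 3.731 (Ltf), −0.2193 and 0.9689 (Pglyrp1) and −0.5493 and 4.495 (Reg3g). For Ltf they lay between −0.01889 and 3.089 in adult heterozygotes and −0.9889 and 1.683 in adult homozygotes against wild type, and for Pglyrp1 between −0.412 and 1.424 in homozygotes against heterozygotes. Slpi lay between −0.1075 and 0.1636 (heterozygotes against KEAP1-deficient adults), −0.06832 and 0.1996 (homozygotes against KEAP1-deficient adults), −0.1125 and 0.1877 (homozygotes against heterozygotes) and −0.3091 and 0.003229 (homozygotes against wild type). The homozygote's adult-minus-pup difference of S100a8 lay between −0.2602 and 1.823. The cause was not tested.

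Replicate numbers were shared between groups, but same-numbered libraries did not vary together (r −0.104 to 0.219 in 9 pup pairs, −0.074 to 0.095 in 24 adult pairs), and 8 of 18 pup and 16 of 48 adult comparisons were highest with the own number. With a replicate block 222 genes were called between mutant pups, and Ltf was called in homozygous pups (−5.07, adjusted p = 0.042); no other member's call changed. The planned quasi-likelihood count test was not run, since the deposited values are log2. Camp and adult Reg3g rest on few reads, and shallower adult homozygous libraries limit low genes there.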
